A study of Gallus gallus with 8 samples.

Results

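Integrins are the cell-surface receptors by which blood cells hold on to vessel walls, to matrix and to each other. The 4 chains ITGA1, ITGA4, ITGA6 and ITGB2 were followed in chicken (Gallus gallus) blood through every array probe whose accession, gene number or symbol resolved to one of them. These were 11 probes of the 60539 on the array, 2 for ITGA1, 1 for ITGA4, 3 for ITGA6 and 5 for ITGB2, and 4 of the 7036 genes that could be named. The study compared peripheral whole blood with peripheral blood mononuclear cells (PBMC), which were separated by Ficoll density gradient just after sampling. Each sample type was measured in 4 male broilers aged 9 weeks, 1 array per sample, and the design text states that the same birds gave both. All birds were reared under standard conditions on a conventional diet, with no treatment and no named line. Whole blood of a bird holds nucleated red cells together with all white cells and thrombocytes, the nucleated cells that do the work of platelets, and thrombocytes of birds commonly collect in the mononuclear layer of such gradients.

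An integrin is a pair of one alpha and one beta chain, and the alpha chain largely sets which ligand is bound. ITGB2, the leukocyte beta chain, pairs in mammals with ITGAL, ITGAM and ITGAX to make the receptors that carry white cells across vessel walls. ITGA4 pairs with ITGB1 or ITGB7 and binds VCAM1 and fibronectin, ITGA1 with ITGB1 is a collagen receptor that mammalian lymphocytes carry after activation, and ITGA6 with ITGB1 is the laminin receptor of mammalian platelets. Inside-out activation by talin, kindlin and RAP1 switches these receptors from a resting to a binding state.

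Levels are given as log2 of the background-subtracted spot signal relative to the array's 75th percentile, so that 0 is the level of the 75th percentile and 1 unit is a 2-fold step. The 75th percentile lay at signals of 663 to 846, and 64.4% to 72.1% of probes were well above background on an array. The sample types carried the markers of their labels. Of 14 red cell genes, 14 were lower in PBMC, with a summed signal of 3394 to 3689 times the 75th percentile in whole blood and 406 to 975 in PBMC. The listed ALAS2 was matched by name to ALAS1 (-0.66), a different gene, so 1 of the 14 is not the intended red cell marker. Members of other lists were also matched under other names, among them BLNK as SH2D6 (B cell) and TREML2 as TREMB2 (thrombocyte). Whether these are the intended genes was not checked. Of 13 T cell genes, 13 were higher in PBMC (94.5 to 122 against 338 to 438), as were 6 of 8 B cell genes (15.3 to 18.1 against 57.7 to 91.5) and 11 of 11 monocyte genes (17.4 to 37.1 against 79.0 to 155). Of 10 thrombocyte genes 7 were higher and 2 lower (55.2 to 90.8 against 239 to 345), while of 9 heterophil genes 4 were lower and 1 higher (41.5 to 57.7 against 13.2 to 28.1). The monocyte gene CD14 and the thrombocyte gene CD9 stayed below that level on every array. All 8 arrays lay on 1 slide, with the whole blood arrays in columns 1 and 2 and the PBMC arrays in columns 3 and 4, so the slide's columns and the sample types cannot be told apart.

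All 11 integrin probes were well above background on 8 of 8 arrays, and all 11 were higher in PBMC by limma's moderated test with an adjusted p under 0.05, against 40.4% of the 41901 probes tested. In either direction 79.8% of tested probes passed, so a difference between these sample types is the common case. In all 11 every PBMC array lay above every whole blood array, which held for 36.9% of the tested probes. The fitted differences ran from 2.00 to 3.05 on the log2 scale, where the median over all tested probes was 0.02. Since a bulk measurement averages over cells, fewer cells of a type and less RNA per cell cannot be told apart in any of these differences.

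**Figure D1:**
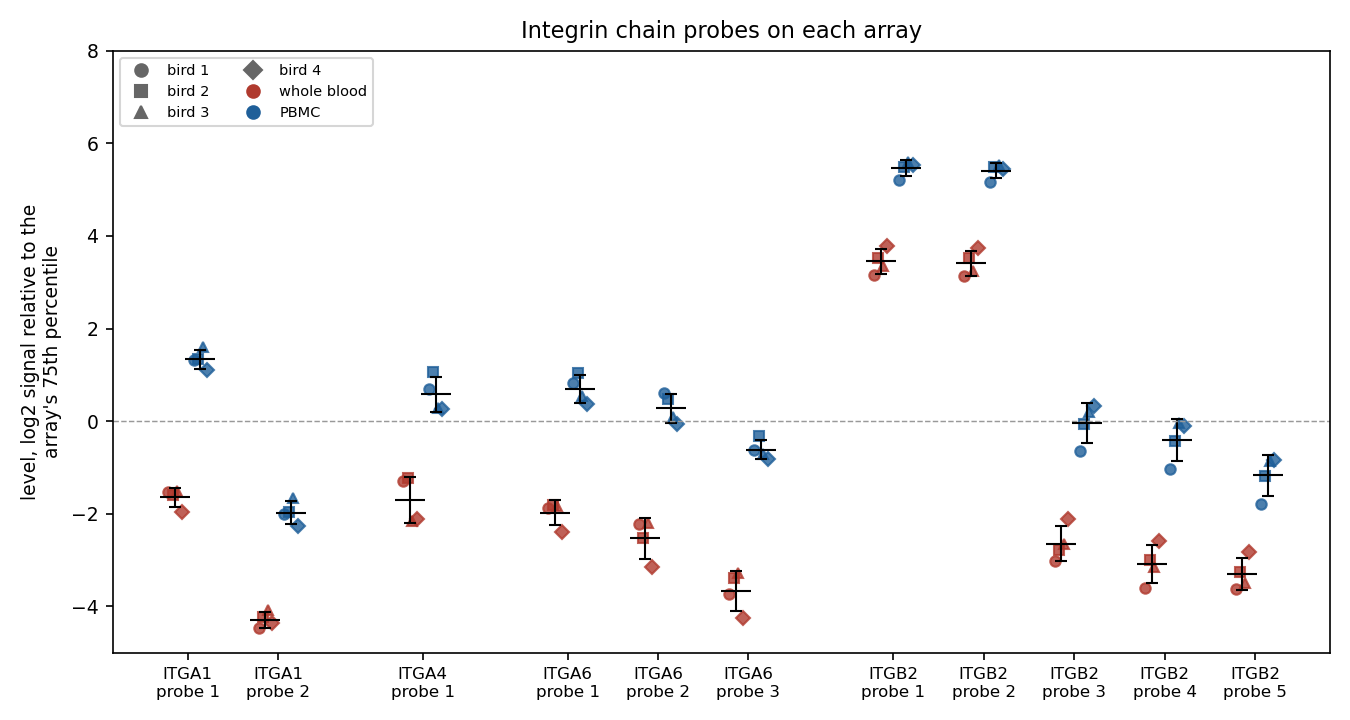
Level of each integrin probe on each array, as log2 signal relative to the array's 75th percentile (vertical axis), with whole blood in red, PBMC in blue, 1 symbol per bird and bars for the mean ± SD of 4 arrays. In every probe the 4 PBMC points lie above the 4 whole blood points. Heights of different probes are not comparable.

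ITGB2, the beta chain that white cells share, was 4.03-fold higher in PBMC on its first probe. Its probe 1 (A_87_P053386) stood at 3.16, 3.52, 3.35 and 3.78 in the whole blood of birds 1 to 4 and at 5.21, 5.50, 5.60 and 5.54 in their PBMC. Bird 1 was the lowest in both sample types, and a gap of 1.43 separated the highest whole blood array from the lowest PBMC array. The means were 3.45 ± 0.26 (SD, n = 4) and 5.46 ± 0.17 (SD, n = 4), a difference of 2.01 ± 0.17 (SE), with a limma adjusted p of 5.12e-06. Within birds the difference was 2.05, 1.98, 2.25 and 1.76.

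The other 4 ITGB2 probes rose as well, by 2.00 to 2.69. Probe 2 (A_87_P192183) followed probe 1 closely, with whole blood levels of 3.14, 3.52, 3.25 and 3.74 and PBMC levels of 5.17, 5.49, 5.54 and 5.45, a difference of 2.00 ± 0.17 (adjusted p 5.24e-06). Probes 3 to 5 stayed below the 75th percentile in whole blood on every array. Probe 3 (A_87_P250273) gave -3.01, -2.79, -2.66 and -2.12 in whole blood and -0.64, -0.06, 0.20 and 0.33 in PBMC, a difference of 2.60 ± 0.26 or 6.07-fold (adjusted p 1.52e-05). Probe 4 (A_87_P008850) differed by 2.69 ± 0.28 (adjusted p 1.76e-05) and probe 5 (A_87_P208043) by 2.14 ± 0.26 (adjusted p 4.95e-05). On probes 3 and 4 the difference exceeded that of the bright probes by 0.59 to 0.69, with every array of PBMC beyond every array of whole blood in the within-array ratio. The exact two-sided permutation p of each such comparison was 0.0286, the smallest that 4 against 4 arrays allow, and 0.05 after Benjamini-Hochberg adjustment over 14 pairs of probes of the same chain, which is not under the threshold. With normexp background correction, which adds the same offset to every spot and so weighs most on dim ones, probe 4 differed by 2.09.

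ITGA4, the alpha chain of the VCAM1 and fibronectin receptor on lymphocytes and monocytes, was 4.85-fold higher in PBMC, and its first probe varied more between birds than those of the other chains. Its only probe (T014607_G008978_ITGA4_424121) gave -1.30, -1.24, -2.15 and -2.11 in the whole blood of birds 1 to 4, and 0.70, 1.06, 0.29 and 0.27 in their PBMC. Birds 1 and 2 stood above birds 3 and 4 in both sample types, and the groups did not overlap. Whole blood averaged -1.70 ± 0.50 (SD, n = 4) and PBMC 0.58 ± 0.38 (SD, n = 4), a difference of 2.28 ± 0.28 with a limma adjusted p of 5.62e-05. The spread between birds was shared by their samples, so that within birds the difference ran only from 2.00 to 2.44.

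ITGA1, the collagen-binding alpha chain, had the largest difference among the first probes of the 4 chains. Probe 1 (A_87_P053381) gave -1.53, -1.59, -1.50 and -1.96 in whole blood and 1.31, 1.34, 1.59 and 1.10 in PBMC. Bird 3 was highest and bird 4 lowest in both sample types, with a gap of 2.61 between the groups. Whole blood averaged -1.65 ± 0.21 (SD, n = 4) and PBMC 1.34 ± 0.20 (SD, n = 4), a difference of 2.98 ± 0.16 or 7.91-fold (limma adjusted p 6.13e-07). That difference was larger than those of 98.0% of the tested probes, where the share for ITGA1 probe 2 was 87.7%. For the first probes of ITGA4, ITGA6 and ITGB2 the share was 86.9%, 94.7% and 81.2%. Probe 2 (A_87_P009155) lay near the dim end, at -4.47, -4.23, -4.09 and -4.37 in whole blood and -2.00, -1.96, -1.66 and -2.27 in PBMC. It differed by 2.32 ± 0.16 or 4.98-fold (adjusted p 1.96e-06), 0.67 less than probe 1 (exact two-sided permutation p 0.0286, adjusted 0.05). With normexp background correction it differed by 1.33, and in the authors' deposited values by 1.44.

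ITGA6, the laminin-binding alpha chain that platelets carry in mammals, was higher in PBMC on all 3 of its probes. Probe 1 (A_87_P088781) gave -1.87, -1.80, -1.83 and -2.39 in whole blood and 0.83, 1.05, 0.54 and 0.38 in PBMC. Bird 4 was the lowest in both sample types, and the groups lay 2.18 apart. The means were -1.97 ± 0.28 (SD, n = 4) and 0.70 ± 0.30 (SD, n = 4), a difference of 2.67 ± 0.20 or 6.38-fold with a limma adjusted p of 2.57e-06. Probe 2 (A_87_P311492) ran from -3.15 to -2.20 in whole blood and from -0.06 to 0.61 in PBMC, a difference of 2.81 ± 0.25 (adjusted p 6.97e-06). Probe 3 (A_87_P008920) gave -3.73, -3.38, -3.29 and -4.26 in whole blood and -0.62, -0.32, -0.71 and -0.81 in PBMC. Its difference of 3.05 ± 0.23 or 8.28-fold was the largest of the 11 probes (adjusted p 2.56e-06), and it became 2.06 with normexp background correction and 2.14 in the authors' deposited values.

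**Figure D2:**
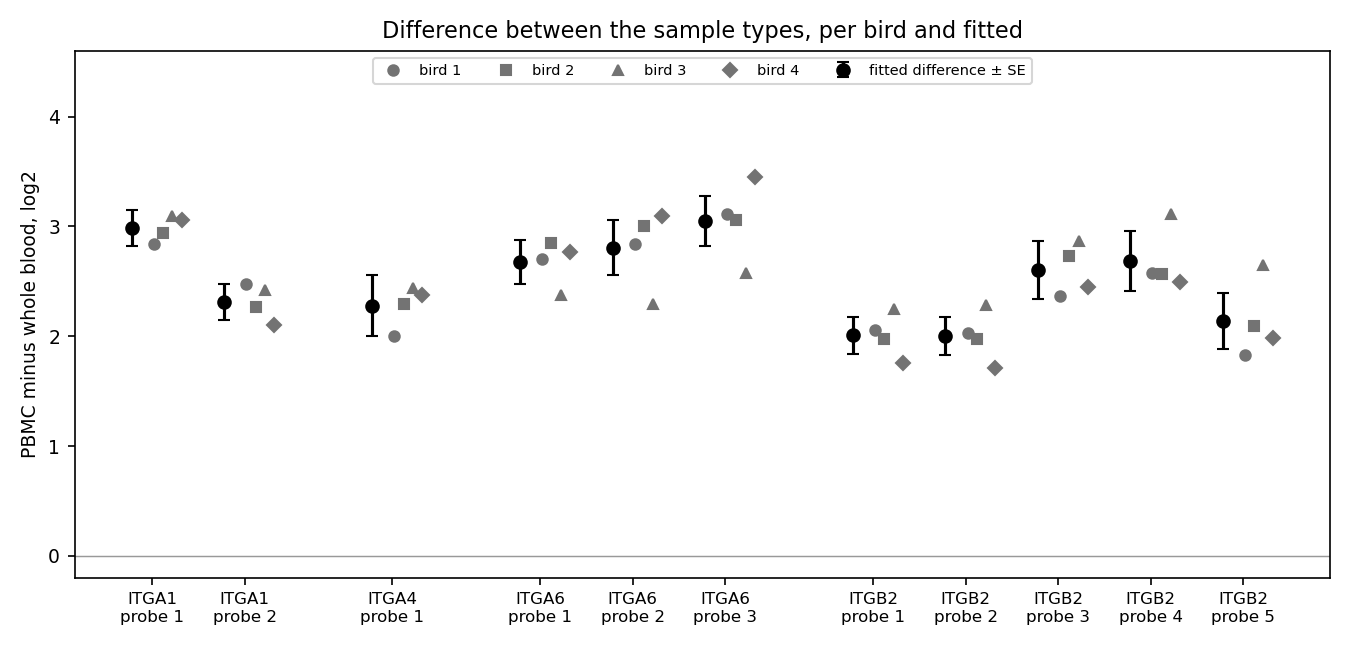
Difference between PBMC and whole blood (vertical axis, log2) for each integrin probe, as 1 grey symbol per bird and a black point for the fitted difference ± SE. All 44 within-bird differences are above 0, from 1.71 for ITGB2 probe 2 in bird 4 to 3.45 for ITGA6 probe 3 in bird 4.

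Rows of the slide held birds 2 and 4 (row 1) or birds 1 and 3 (row 2), so a row and its pair of birds cannot be told apart. In row 1 the first probes differed by 3.00 for ITGA1, 2.34 for ITGA4, 2.81 for ITGA6 and 1.87 for ITGB2. In row 2 they differed by 2.97, 2.22, 2.54 and 2.15 in the same order. All 11 integrin probes passed the threshold within each row and with the row as a block.

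The contrast between chains of leukocytes and of thrombocytes was read from the within-array ratio of their first probes, which removes the scaling of the array. In all, 6 pairs of chains were compared, and none passed after adjustment over them. ITGA6, read here as the thrombocyte chain from its place on mammalian platelets, differed between sample types by 0.66 ± 0.33 more than ITGB2, the leukocyte chain, with birds 1 to 4 at 0.65, 0.87, 0.13 and 1.01 (exact two-sided permutation p 0.114, adjusted 0.171). The sign was the same in 4 of 4 birds, and over the 15 combinations of ITGA6 and ITGB2 probes the value ran from -0.01 to 1.05. It was 0.15 after quantile and -0.01 after cyclic loess normalization, where the bright ITGB2 probe 1 itself differed by 2.47 and 2.55. ITGB3, the beta chain of the thrombocyte marker list, differed between sample types by 1.77 on its first probe, below the 2.01 of ITGB2. Its dimmer second probe differed by 2.26, above that value. By first probes ITGA6 and ITGB3 thus lie on either side of ITGB2, but not by the second ITGB3 probe. The differences of ITGB3 from ITGB2 were not tested. Against ITGA4, the other leukocyte chain, ITGA6 differed by 0.40 ± 0.22 more, in 3 of 4 birds (exact permutation p 0.143, adjusted 0.171).

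ITGA1 differed by 0.97 ± 0.26 more than ITGB2, with birds at 0.79, 0.96, 0.85 and 1.30. This was the only pair of chains at the smallest exact two-sided permutation p, 0.0286, and its adjusted p was 0.171. Among the 10 combinations of their probes it ran from -0.37 to 0.98, with the dim ITGA1 probe 2 on the low side. Over the alternatives of processing and left-out arrays the value for ITGA1 and ITGB2 ran from 0.36 to 1.13. ITGA1 also differed by 0.71 ± 0.31 more than ITGA4 (exact permutation p 0.0857, adjusted 0.171) and by 0.31 ± 0.17 more than ITGA6 (p 0.114 by exact permutation, adjusted 0.171), each in 4 of 4 birds by first probes. The 6 probe combinations of ITGA1 and ITGA6 spanned -0.73 to 0.31, and the 2 of ITGA1 and ITGA4 spanned 0.04 to 0.71. Over the same alternatives ITGA1 against ITGA6 ran from -0.19 to 0.43, and ITGA1 against ITGA4 from 0.37 to 0.91. The 2 leukocyte chains ITGA4 and ITGB2 differed from each other by 0.27 ± 0.41 (exact permutation p 0.457, adjusted 0.457), and by -0.24 and -0.39 after quantile and cyclic loess normalization. Sign changes within birds allow no p under 0.125. Probes of the same chain differed by up to 0.69, against up to 0.97 between the first probes of chains.

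**Figure D3:**
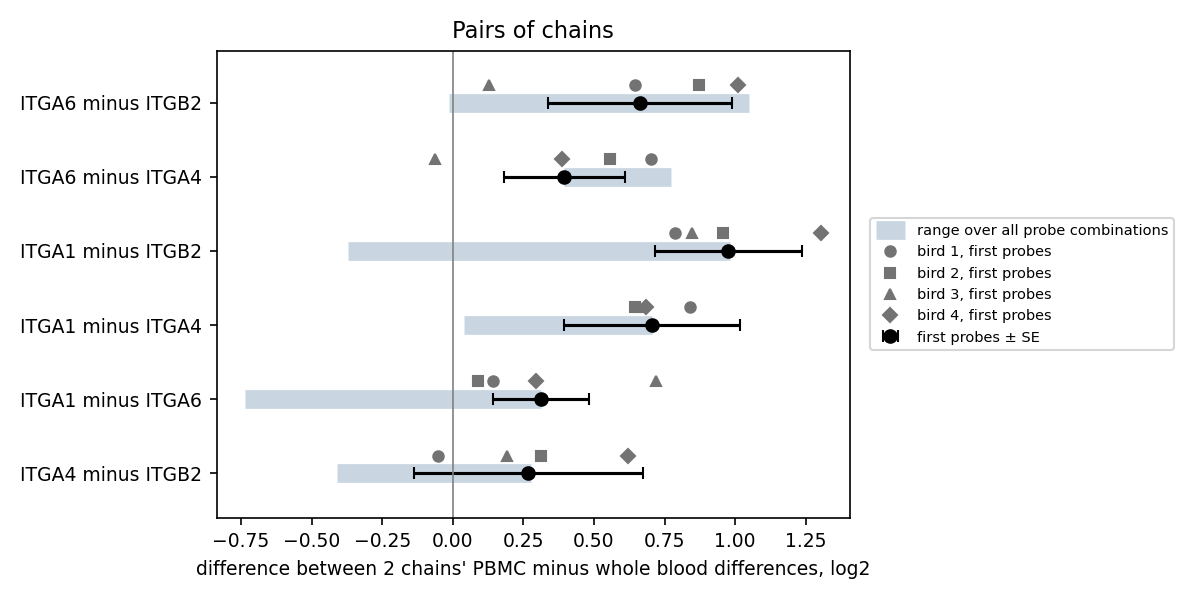
Difference between the PBMC minus whole blood differences of 2 chains (horizontal axis, log2), with a black point and bar for the first probes ± SE, grey symbols for the birds and a pale bar for the range over all probe combinations. The pale bars of 4 of the 6 pairs cross 0.

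For each chain the same bird stood at the low or the high end in both sample types. The bird and the end were picked for each chain after the values were seen. For any single bird, 7.38% to 12.3% of all tested probes were lowest in both sample types, and 7.97% to 10.6% highest. These shares add up over the birds, so such an agreement for some bird is common. Probes of 1 chain read the same samples and do not repeat the result independently. All 5 ITGB2 probes were lowest in bird 1 in whole blood and again in PBMC, an agreement found for bird 1 in 12.3% of the 41782 tested probes with a value on every array. On probe 4 bird 1 lay 0.52 below the whole blood mean and 0.63 below the PBMC mean. Monocyte genes moved with it, since 10 of 11 were lowest in bird 1 in both sample types and their median level there was 0.56 below the group mean in whole blood and 0.70 below it in PBMC. The part of monocyte number in the ITGB2 order was not tested. Without bird 1 the ITGB2 difference between sample types was 2.00.

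All 3 ITGA6 probes were lowest in bird 4 in both sample types, which held for 9.01% of probes. Of the thrombocyte genes, 0 of 9 were lowest in bird 4 in both sample types. The median level of 10 such genes in bird 4 was 0.04 above the mean in whole blood and 0.16 below it in PBMC. That list is mixed, with 7 genes higher in PBMC and F5 and GFI1B lower. The part of thrombocyte number in the ITGA6 order was not tested. The median of 9 heterophil genes was 0.64 and 0.66 below its means in bird 4, with 4 of 9 lowest there in both sample types, and its part in the ITGA6 order was not tested. The list was split in the whole blood of that bird, where MMP9 (2.86 against a mean of 1.87), CSF3R (1.59 against 0.55), S100A12 (3.78 against 3.21) and NCF1C (0.19 against -0.01), named after their values were seen, stood above their means. The ITGA6 difference without bird 4 was 2.64. Both ITGA1 probes were highest in bird 3 in both sample types (7.97% of probes), and the ITGA4 probe was highest in bird 2 in both (8.90% of probes).

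**Figure D4:**
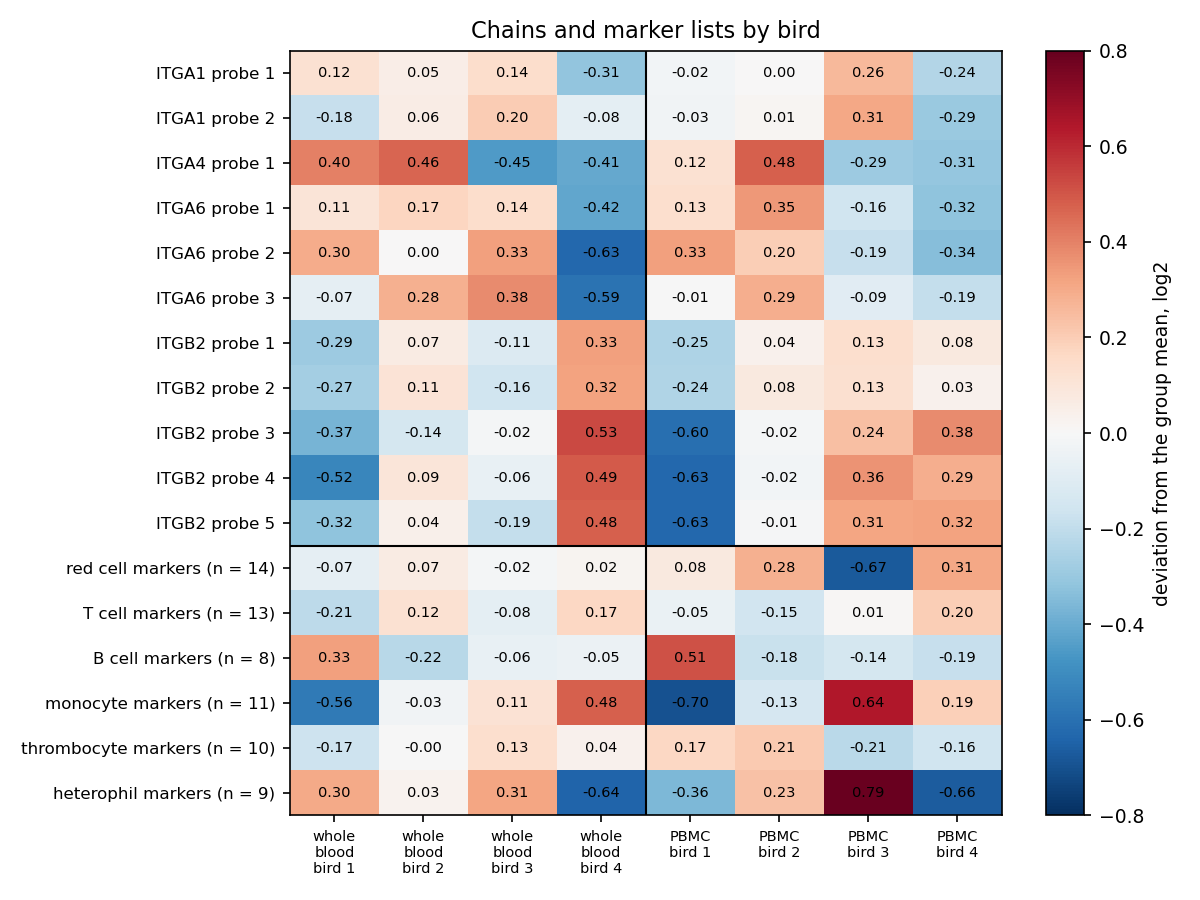
Deviation of each array from its group mean (colour and printed value, log2) for the integrin probes (upper rows) and for the median of each marker list (lower rows), with whole blood birds 1 to 4 at left and PBMC birds 1 to 4 at right. ITGB2 probes and monocyte genes are low in bird 1 in both sample types, and ITGA6 probes are low in bird 4.

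Beside these chains, 22 other integrin chains were looked for, 8 had a named probe and 5 could be tested, and all 5 were higher in PBMC. Among the 5510 named genes tested, 41.9% were higher in PBMC and 38.1% lower, with a median difference of 0.10, against 2.15 for the 5 chains. ITGB1, the partner of ITGA1, ITGA4 and ITGA6, differed by 2.15 ± 0.17 (limma adjusted p 3.03e-06) on its first probe and by 3.01 ± 0.17 on its second. Its first probe gave 3.02, 2.85, 3.18 and 2.88 in whole blood and 5.52, 4.98, 4.94 and 5.11 in PBMC, with no overlap. ITGB3, the beta chain of the fibrinogen receptor of platelets and thrombocytes, gave 4.93, 5.28, 5.41 and 5.34 in whole blood and 7.16, 7.30, 6.71 and 6.88 in PBMC. It differed by 1.77 ± 0.18 (adjusted p 1.49e-05) on that probe, by 2.26 ± 0.34 on the second, and its first probe by 2.47 after cyclic loess normalization.

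ITGAV, the alpha chain of vitronectin receptors, differed by 2.13 to 2.44 on its 4 probes. ITGB5, which pairs with ITGAV, differed by 2.65 ± 0.37 (adjusted p 0.000144), and by 1.55 when averaged with its second probe, which was well above background on only 2 arrays of each sample type. ITGA3, a laminin-binding alpha chain of epithelia, was the chain whose probes disagreed. Its first probe differed by 2.05 ± 0.17 (adjusted p 4.00e-06), whereas its second was well above background in whole blood, at -4.38, -4.02, -5.64 and -4.11, and on no PBMC array. In whole blood that probe was at least 3.51-fold higher (limma adjusted p 0.000109), where the bound sets whole blood against the higher of the dimmest signal above background and the probe's own signal on each PBMC array. ITGA8 and ITGB8 were above background on at most 1 array of a sample type for any probe, and ITGA9 only in the whole blood of bird 1. ITGAL, ITGAM, ITGAX, ITGA2B, ITGA5 and ITGB7 had no probe matched by name and were not analysed here.

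Of 24 measured genes that activate integrins or link them to the cytoskeleton, 23 were tested, 19 were higher in PBMC, 1 was lower and 3 did not pass, with a median difference of 1.63. Over all named genes tested, 41.9% were higher and 38.1% lower, with a median difference of 0.10. Large differences were in FYB1, the adaptor that couples T cell signals to integrin activation, at 2.58 ± 0.13 (limma adjusted p 4.60e-07), and in the Src family kinase FYN at 2.54 ± 0.13 (adjusted p 5.31e-07). Vinculin, VCL, which reinforces the link from talin to actin, differed by 2.52 ± 0.17 and the kinase LYN by 2.28 ± 0.13. The first probe of the kinase SYK differed by 2.23 ± 0.23. It gave 1.65, 1.63, 1.70 and 1.17 in whole blood, where ZAP70 of the T cell list gave 1.62, 1.65, 1.78 and 1.09. In PBMC the SYK probe gave 3.91, 3.74, 4.21 and 3.22, and ZAP70 3.91, 3.74, 4.23 and 3.24. Which gene the SYK probe reads was not tested. Talin, TLN1, which binds beta chain tails and activates them, differed by 1.57 ± 0.24 or 2.97-fold (adjusted p 0.000238), and the small GTPase RAP1B by 2.12 ± 0.19 (adjusted p 6.60e-06). The kindlin gene FERMT3 had no matched probe and was not analysed here.

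The exceptions among these genes are named after their values were seen. LIMS2, a partner of the integrin-linked kinase, was the only gene that was lower in PBMC, by -1.76 ± 0.32 (adjusted p 0.000702), and the value was -0.77 with normexp background correction and -1.28 with an adjusted p of 0.0607 in slide row 2 alone. LIMS1, its close relative, differed by 0.73 ± 0.57 (adjusted p 0.259). APBB1IP, which joins RAP1 to talin, differed by 0.46 ± 0.20 (adjusted p 0.0561), and SKAP2 by 0.43 ± 0.22 (adjusted p 0.103). With bird as a block the limma adjusted p was 0.0493 for APBB1IP and 0.0479 for SKAP2. APBB1IP ran from -0.04, when its 4 probes were averaged (adjusted p 0.824), to 0.65 over the alternatives, and it did not pass in 18 of 25. Among those where it passed were the fits without the whole blood array of bird 4 (0.55) or the PBMC array of bird 1 (0.55) or bird 4 (0.56). SKAP2 did not pass in 21 of 25 alternatives, and it passed after quantile (0.81) and cyclic loess (0.75) normalization.

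Of 17 measured ligands and counter-receptors, 10 were tested, 5 were higher in PBMC, 3 lower and 2 did not pass, with a median difference of 1.11. These shares are near those of all named genes, 41.9% higher and 38.1% lower. Fibronectin, FN1, bound by ITGA4 and other alpha chains, differed by 2.06 ± 0.53 (limma adjusted p 0.00589) with overlapping groups, and higher in 4 of 4 birds. The junction proteins JAM3 and F11R differed by 1.99 ± 0.18 and 1.85 ± 0.34, and by 1.16 and 0.49 with normexp background correction. Vitronectin, VTN, differed by 1.26 ± 0.28 (0.37 with normexp background correction, and 0.80 with an adjusted p of 0.0980 in slide row 2 alone) and the laminin chain LAMB2 by 1.00 ± 0.24 (adjusted p 0.0825 in slide row 2 alone). VCAM1 had no matched probe and was not analysed here.

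The collagen chain COL1A2 was lower in PBMC by -0.87 ± 0.18 (limma adjusted p 0.00165, and 0.0899 in slide row 2 alone), and by -0.30 with normexp background correction. COL4A2, of basement membrane collagen, was in whole blood at least 2.18-fold higher (adjusted p 0.00402), with no PBMC array above background, and its call was lost when its 4 probes were averaged (-0.33, adjusted p 0.372), as it was within row 1 of the slide (-1.84, adjusted p 0.0501). Osteopontin, SPP1, named after its value was seen, was lower by -0.82 ± 0.32 (adjusted p 0.0410) with overlapping groups, and its adjusted p ran up to 0.354 under the alternatives. It did not pass without any 1 of the 4 whole blood arrays or without the PBMC array of bird 2 or bird 3, at values of -0.87 to -0.74. Without the PBMC array of bird 4, which stood lowest at -5.25, it was -0.48 and passed. In all, SPP1 kept its call in 13 of 24 alternatives. TNC rose above background in 2 samples of whole blood only, and COL4A1 and VWF each in 1 sample of PBMC only. The groups overlapped for all 3 genes. TNC was higher in PBMC in 1 of 4 birds, and COL4A1 and VWF each in 3 of 4. Most of these values lay below background, so no bound on the fold is given, and all 3 were untested. JAM2 at 1.23 ± 0.74 and THBS1 at 0.11 ± 0.46, named after their values were seen, did not pass, and with bird as a block the adjusted p of JAM2 was 0.00166. With probes averaged, JAM2 was at 1.85 (adjusted p 0.00286) and THBS1 at -0.74 (adjusted p 0.0481). Over the alternatives run, JAM2 did not pass in 20 of 24 and THBS1 in 24 of 25.

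Of 10 surface partners of integrins, 9 were tested, 5 were higher in PBMC, 1 lower and 3 did not pass. Over all named genes tested, 41.9% were higher and 38.1% lower, so so short a list says little about the partners as a group. CD226, an adhesion receptor that associates with the ITGB2 receptor of lymphocytes, differed by 2.52 ± 0.14 (limma adjusted p 6.09e-07), and by 1.26 with normexp background correction. The tetraspanins CD82, CD151 and CD81, which gather integrins in the membrane, differed by 2.35 ± 0.14, 2.14 ± 0.17 and 1.72 ± 0.17, and the hyaluronan receptor CD44 by 2.21 ± 0.18. Basigin, BSG, was lower by -0.59 ± 0.21 (adjusted p 0.0261), and the call ended after quantile (-0.06) and cyclic loess (-0.04) normalization and within each slide row (-0.34 and -0.85). It also ended without the whole blood array of bird 2 (-0.52) or bird 3 (-0.47), or the PBMC array of bird 1 (-0.52) or bird 3 (-0.51). In all, BSG kept its call in 16 of 25 alternatives. CD36 stood at -0.07 ± 0.42 and did not pass. CD47 at -0.00 ± 0.15 and PECAM1 at 0.85 ± 0.40, named after their values were seen, did not pass either, and with bird as a block the adjusted p of PECAM1 was 0.00107. PECAM1 did not pass in 18 of 25 alternatives. Among those where it passed were the fits without the whole blood array of bird 1 (1.12) or the PBMC array of bird 4 (1.07). CD9 stayed below background throughout.

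**Figure D5:**
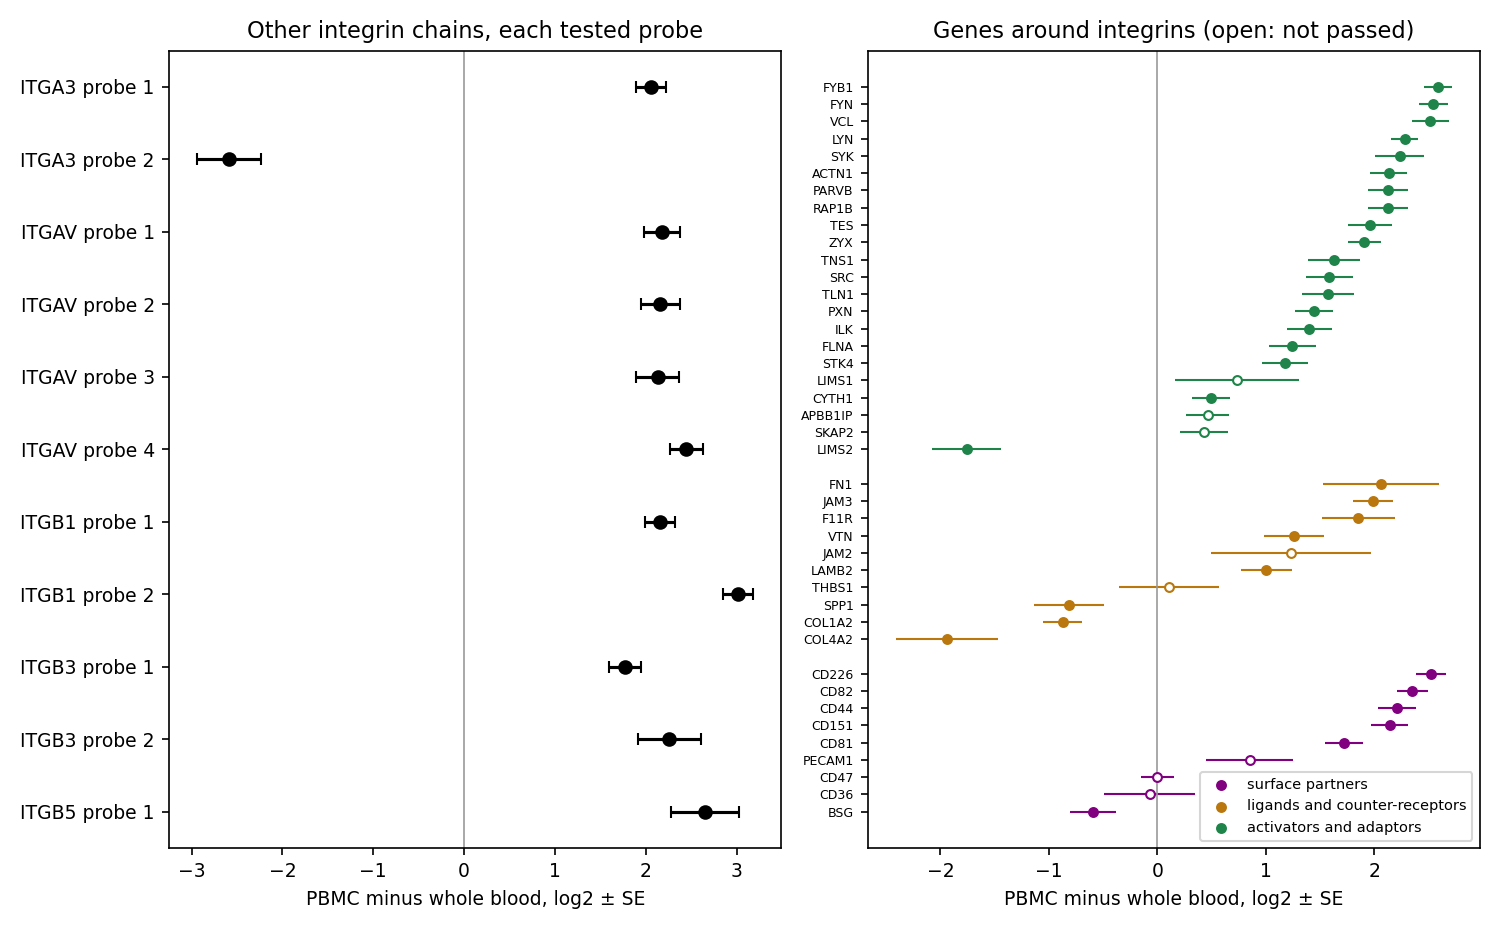
PBMC minus whole blood difference (horizontal axis, log2 ± SE) for each tested probe of the other integrin chains (left) and for tested genes around integrins (right), with open circles for genes that did not pass. All other chain probes except ITGA3 probe 2 lie above 0. ITGA3 probe 2 and COL4A2 were below background in PBMC, so their plotted points are fitted values and not bounds.

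The pattern of each first probe over the 8 arrays was compared with those of 4795 named genes outside these lists and above background on all arrays, by the root mean square distance after centring each probe on its own mean. Nearest to ITGB2 were LCP1 at 0.0701, SASH3 at 0.0866 and RHBG at 0.0912, and 398 genes lay within 0.3. Nearest to ITGA1 were SEMA4D at 0.128, MARK1 at 0.130 and BIN1 at 0.134, with 83 genes within 0.3. Nearest to ITGA6 were MYLK at 0.132, SERGEF at 0.139 and IQGAP3 at 0.150, with 102 within 0.3. ITGA4 had the fewest near neighbours, 24 within 0.3, led by LATS2 at 0.202, TNFSF10 at 0.222 and LCORL at 0.226. All 4 patterns hold the difference between sample types, which most tested probes also show in either direction.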

How the data were processed

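Whole blood and PBMC RNA of 4 birds was hybridised to 8 Agilent 1-colour (Cy3) arrays. Per the file headers, the deposited spot intensities (processed signal) were background-subtracted and spatially detrended by Agilent Feature Extraction 10.7.3.1 (10.7.1.1 per the submitters' processing notes) and were not scaled between arrays. The above-background, saturation and outlier flags are scores of 0 or 1 from the deposited files. The authors' table holds log2 values of 46154 features, each column equal to log2 median signal minus a constant, with a median of 0. How its features were chosen is not given in the sources used. Columns of sample values left out numbered 0.

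Each array's 1319 control spots and its outlier-marked spots were dropped, leaving up to 61350 spots, and spots sharing a probe were averaged. Levels are the log2 processed signal less the 75th percentile of that array. No probe was saturated (0). Probes well above background (at least 0.5 of spots) on all 4 arrays of a group were tested (41901 of 60539) in R 4.3.3 by limma 3.58.1 (lmFit, eBayes), Benjamini-Hochberg adjusted over all of them, with a threshold of 0.05. The number of arrays limits the precision. The first probe of a gene is the one with the highest mean, and it stands for the gene in lists and pairs. Pairs of chains were compared by exact permutation of the 70 splits of 8 arrays, with the smaller tail doubled for a two-sided p. Neither this permutation nor the main limma fit has a bird term, so both leave out the pairing of samples by bird. Bird entered as a block in an alternative fit only. The fit was tested on simulated data.

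Names came from a table of RefSeq genes (assembly GRCg7b, symbols and synonyms), through 10812 accessions, 5139 gene numbers and 1543 symbols, 17494 probes in all. The headers name build galGal3, so no coordinates are given. Genes named in the text are all members, all other integrin chains, up to 6 per list with the largest called differences, those with only a bound and a preset set, and some genes under this rule are not reported here. Members and lists were chosen with earlier results of these data known. Same-numbered samples deviated together (correlation of 0.353 to 0.472, against at most 0.0474 between numbers), and the design text states shared birds, so the numbers pair the samples. Replicates are different birds. Alternatives covered background correction, the authors' values, normalization, probe filters, 1 probe per gene or their mean, bird and slide row, and leaving out arrays.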

Additional observations from a re-analysis of the deposited data

Results flagged for a closer look

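ITGA6 probe 1 in whole blood stood out among the integrin values, because bird 4 at -2.39 lay far below birds 1 to 3, which were between -1.87 and -1.80. Its gap to the nearest bird was 0.889 of the whole range, above Dixon's 95% critical value for 4 samples. Of 34 groups of 4 values examined in this way, 22 of single probes and 12 of ratios between chains, this was the only one past the critical value, and chance passes about 1 in 20. The other ITGA6 probes were also lowest in bird 4, with ratios of 0.661 and 0.539. The within-bird difference of probe 1 in bird 4 was 2.77, inside the range of the other birds.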

How the results depend on the processing

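Over 25 alternatives the 11 integrin probes kept their direction and stayed past the threshold in 261 of 261 combinations that could be run, with log2 differences of 1.33 to 3.25 and an adjusted p of at most 0.00556. With bird as a replicate block their largest limma adjusted p was 1.99e-05 and 34673 probes were called, and beside the 4 genes given above the block changed no call among the chains and listed genes. The number called depends on what was tested. It was lowest at 26973 of 34131 when a gene's probes were averaged, and highest at 35405 of 60539 with no filter on dim probes. The count of called ligands, 8, became 4 when probes had to be above background on all 8 arrays, where 5 were tested, and 5 in slide row 2 alone, where fewer birds entered. ITGA3 turned to -0.27 (adjusted p 0.299) when its probes were averaged, since the second probe was lower in PBMC. Of 47 listed genes 33 kept their call in every setting. Among them were CD36 and CD47, which passed in no setting and changed direction, from -0.74 to 0.60 and from -0.28 to 0.28. Leaving out arrays gave first-probe differences of 2.88 to 3.06 for ITGA1, 2.12 to 2.43 for ITGA4, 2.53 to 2.78 for ITGA6 and 1.91 to 2.12 for ITGB2. The authors' values moved the median of all probes by -0.16, and the integrin probes whose fold moved by over 1.5 times there or with normexp (run on the median spot signal) were ITGA1 probe 2, ITGA6 probe 3 and ITGB2 probe 4. For pairs of chains, filters and the row block cannot change the value and were not run, and settings that leave out arrays cannot reach 0.05 in the two-sided exact test used. Signal over background limits ITGA1 probe 2 and the dim ligands.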
